A study of Rattus norvegicus with 6 samples.

Results

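Ntrk2 and Ntrk3 encode TrkB and TrkC, receptor tyrosine kinases for the neurotrophins, and both genes gave circular RNAs in rat white matter. A circular RNA (circRNA) is a closed loop that forms when a downstream splice donor is joined to an upstream acceptor, and each read across that back-splice junction counts 1 such loop. The members described here are all 17 entries of the deposited table with the host name Ntrk2 (10 entries) or Ntrk3 (7 entries), out of 11123 entries in all. The pair of hosts was chosen by measured values: in an earlier fit to these data their summed reads were among the highest folds of model over control rats. Model against control values of these hosts are therefore given as a description, with no test, and only comparisons that do not use that contrast are tested.

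The samples were white matter from 3 rats labelled as having cerebral palsy (model) and 3 rats labelled as healthy (control), with 1 library each. RNA of both groups was digested with RNase R, an enzyme that degrades linear RNA, before sequencing. The sources used here do not give how the model was made, or the animals' strain, age and sex. The libraries held 4750 to 5821 junction reads in model rats and 5926 to 6793 in control rats, and a count of 0 in a library allows up to 0.0442% to 0.0632% of its junction reads (3 reads, counting error only). Y-linked junctions had 0 reads in model rats and 13 in control rats, and the part of sex in the values below was not tested. In bulk tissue, fewer cells of a type and less RNA per cell cannot be told apart.

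Trk receptors sit in the membrane with an extracellular ligand-binding part, 1 membrane pass and an intracellular tyrosine kinase. TrkB binds brain-derived neurotrophic factor (BDNF) and neurotrophin-4, and TrkC binds neurotrophin-3. Binding pairs the receptors, which then signal through Ras and MAP kinases, phosphoinositide 3-kinase and phospholipase C gamma. In the brain both genes also make truncated receptors without the kinase, and truncated TrkB is abundant in astrocytes. In oligodendrocyte lineage cells, BDNF and neurotrophin-3 are known to act on proliferation and myelin formation. Since the ligand-binding part is the amino end of the protein and the kinase the carboxyl end, upstream exons of either gene encode ligand-binding parts and downstream exons the kinase.

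The 17 entries held 153 junction reads, 92 from Ntrk2 and 61 from Ntrk3, which were 0.261% and 0.173% of the 35272 reads of the series. By reads, Ntrk2 was number 55 and Ntrk3 number 94 among 3696 detected hosts. Most of these reads came from few loops: 5 circRNAs with at least 6 reads each held 136 of the 153. Another 10 entries had 1 to 5 reads each (17 reads together), 6 of them a single read, and 2 Ntrk2 entries had no read in these 6 libraries. A read in every library was seen for 3 circRNAs, circRNA419 of Ntrk2 and circRNA1989 and circRNA1990 of Ntrk3. Of the 15 detected entries, 13 were exonic. The other two were ciRNAs, loops derived from an intron: ciRNA1004 and ciRNA228 of Ntrk2, with 1 read each, both in the 4686 bp intron on chromosome 17 from 5831573 to 5836258.

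**Figure D1:**
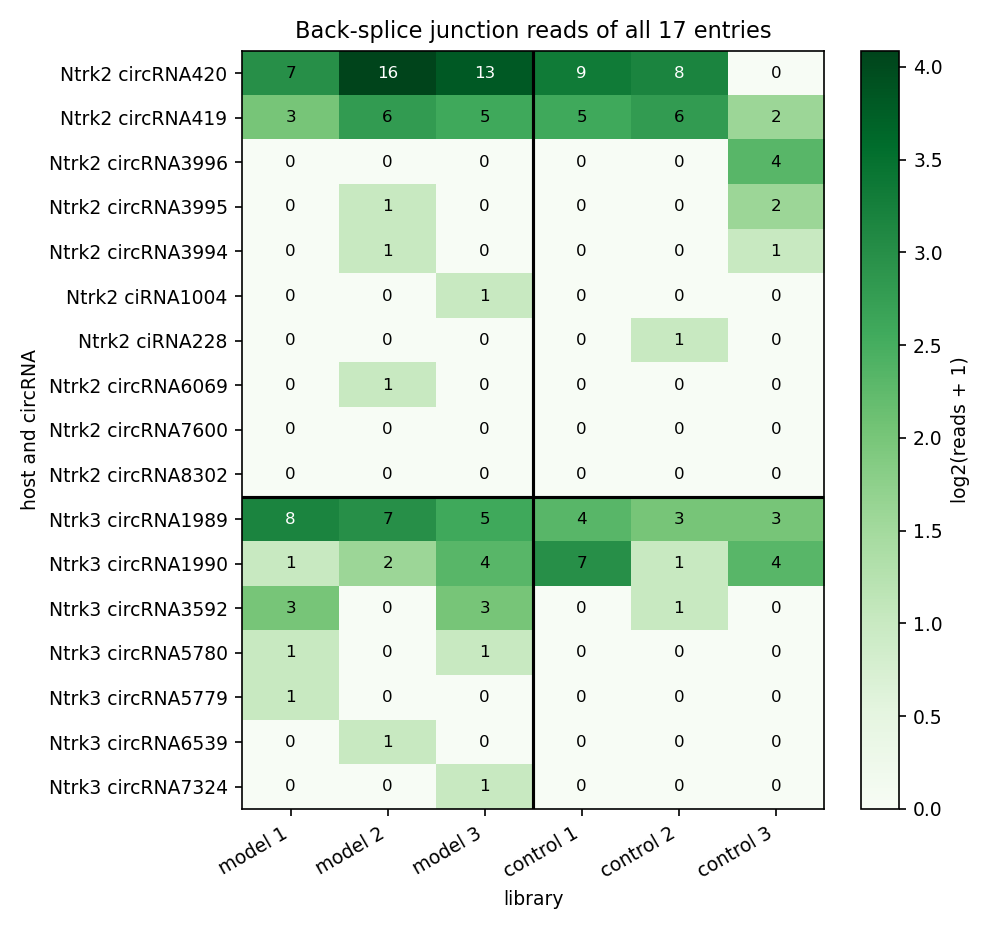
Back-splice junction reads (number in each cell, shade as log2 of reads + 1) of all 17 Ntrk2 and Ntrk3 entries in each model and control library. Reads concentrate in Ntrk2 circRNA420 and circRNA419 and in Ntrk3 circRNA1989 and circRNA1990, and control 3 has 0 reads of circRNA420 but 4 of circRNA3996.

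All coordinates are 1-based positions in the mRatBN7.2 build, and both genes lie on the minus strand. The most read Ntrk2 loop was circRNA420, with 8 exons on chromosome 17 from 5794679 to 5831572 and 53 reads. Next was circRNA419, with 6 exons from 5794679 to 5814233 and 27 reads, so both share a splice donor and differ in the acceptor. That donor, at 5794679, lies next to a 100579 bp intron, the longest listed for the gene, and took part in 83 of the 90 exonic Ntrk2 reads. The third loop on that donor was circRNA3995, 10 exons up to 5836523, with 3 reads. The remaining detected exonic Ntrk2 loops were circRNA3996 (4 exons, 5828052 to 5836523, 4 reads), circRNA3994 (2 exons, 5616551 to 5622761, 2 reads) and circRNA6069 (3 exons, 5811893 to 5814233, 1 read). The entries without a read were circRNA7600 (3 exons, 5616551 to 5636954) and circRNA8302 (8 exons, 5636824 to 5814233).

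The most read Ntrk3 loop was circRNA1989, with 3 exons on chromosome 1 from 132185708 to 132198676 and 30 reads. It stood between a 45208 bp intron downstream and an 88030 bp intron upstream. Next was circRNA1990, with 7 exons from 132373967 to 132385148 and 19 reads, at the other end of the circularised region and beside an 87071 bp intron. The loop circRNA3592 joined the donor of the first to the acceptor of the second, which spans 199441 bp and 11 exons, with 7 reads. Exon 132286707 to 132286895, between both long introns, gave a single-exon loop of 189 bp, circRNA5780, with 2 reads. The other three, circRNA5779 (2 exons), circRNA6539 (4 exons) and circRNA7324 (6 exons), had 1 read each.

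Long flanking introns were shared by the loops of both hosts. The table lists 8 introns beside Ntrk2 junctions (4686 to 100579 bp) and 7 beside Ntrk3 junctions (1057 to 88030 bp), and in each host 3 of them exceed 40000 bp, a limit set after the lengths were seen. Loops with such an intron on at least 1 side held 85 of the 92 Ntrk2 reads and 60 of the 61 Ntrk3 reads. The longer flanking intron of circRNA420 and circRNA419 was at the 94.0th percentile of 7447 detected exonic circRNAs, and that of circRNA1989 and circRNA1990 at the 92.7th. The median over those 7447 was 13465 bp. These are descriptions of the annotation beside each junction, with no test, since the loops of a host share their introns.

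**Figure D2:**
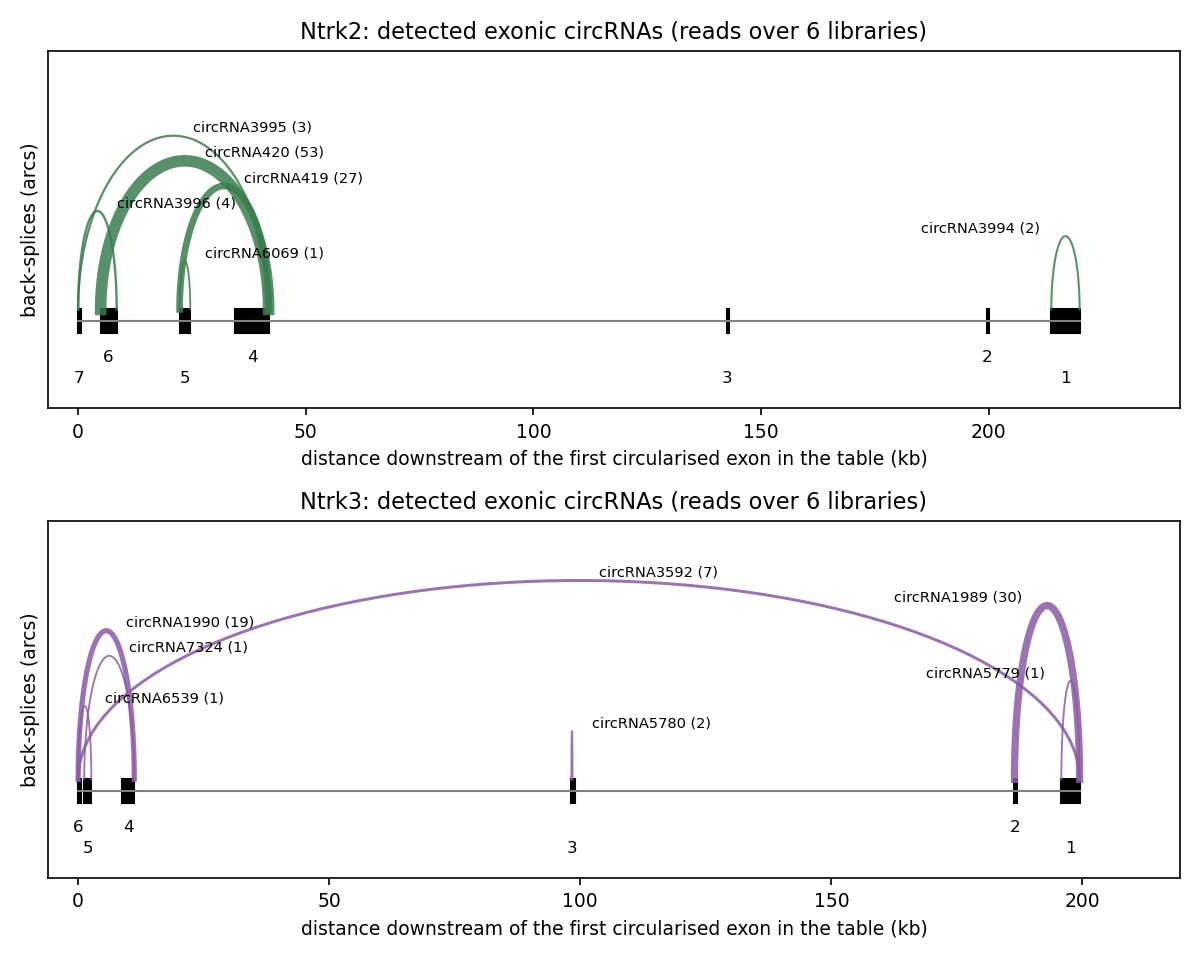
Detected exonic circRNAs of Ntrk2 (top) and Ntrk3 (bottom), drawn to scale in kb from the most upstream circularised exon, with transcription running left to right. Black boxes are blocks of neighbouring exons numbered from the downstream end (short ones widened to stay visible), arcs are back-splices, and arc width grows with the reads over 6 libraries (in brackets). The 53 and 27 reads of the main Ntrk2 loops lie at the upstream end, while Ntrk3 has 30 reads at the downstream end and 19 at the upstream end.

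The exon layout of the circularised regions was parallel in both genes. Junctions and flanking introns in the table divide each region into blocks of neighbouring exons, and the exon counts of all 15 exonic loops (detected or not) add up over these blocks. Counted from the downstream end, blocks 1 to 5 held 2, 1, 1, 3 and 3 exons in Ntrk2 and the same numbers in Ntrk3. Block 2 was a 131 bp exon and block 3 a 189 bp exon in both. Upstream of these, Ntrk2 had blocks 6 and 7 of 2 exons each, and Ntrk3 had block 6 of 1 exon. The sequences of these exons were not compared.

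Over this shared layout the hosts used different loops. A loop of blocks 1 and 2 was the main Ntrk3 product, circRNA1989, while the same loop of Ntrk2, circRNA7600, had 0 reads in each of the 6 libraries. A loop of blocks 4 and 5 was the second Ntrk2 product, circRNA419, with 3, 6 and 5 reads in model rats and 5, 6 and 2 in control rats. The same loop of Ntrk3, circRNA7324, had 0, 0 and 1 reads in model rats and 0 in every control rat. Thus neither pair of loops overlapped between the hosts over the 6 libraries. Loops of blocks 4 to 6 were made by both, with 53 reads of circRNA420 and 19 of circRNA1990. Block 6 lies outside the shared layout, so these loops match in block number only. Loops of block 1 alone were rare in both (2 reads of circRNA3994 and 1 of circRNA5779). In sum over the exonic loops, blocks 1 to 3 alone held 2 of 90 Ntrk2 reads and 33 of 61 Ntrk3 reads. These loops were set side by side after their reads were seen, so no test is given.

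**Figure D3:**
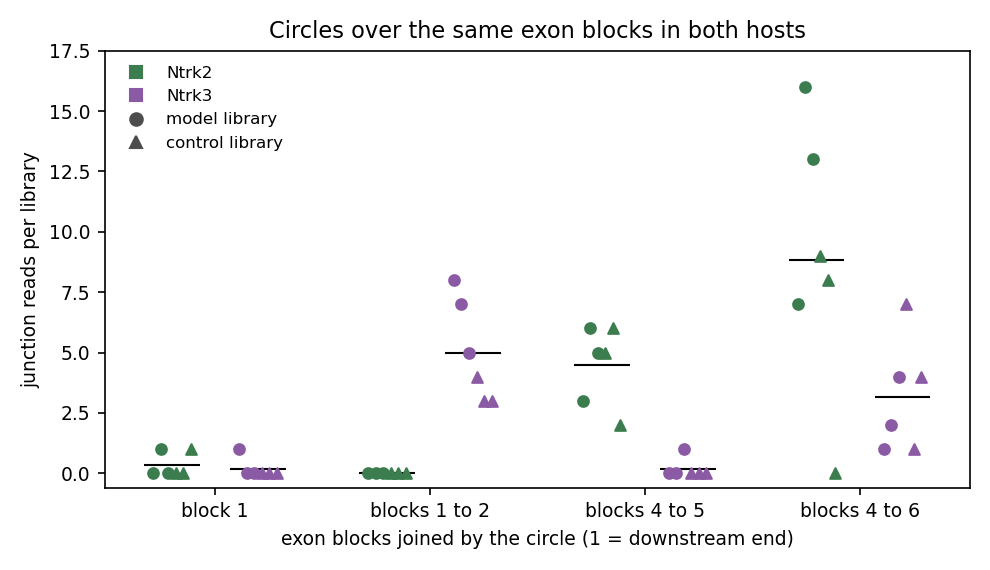
Junction reads per library of loops that join exon blocks of the same number in Ntrk2 and Ntrk3 (blocks counted from the downstream end). Block 6 has 2 exons in Ntrk2 and 1 in Ntrk3, so loops of blocks 4 to 6 match in number only. Circles are model libraries, triangles control libraries, and horizontal lines the mean of 6. Blocks 1 to 2 have 0 reads in every library of Ntrk2 and 3 to 8 in Ntrk3, and blocks 4 to 5 have 2 to 6 in Ntrk2 and 0 or 1 in Ntrk3.

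Whether one receptor gene gave more circular RNA than the other was tested within libraries, where depth cancels. Each loop has a single back-splice junction, so these reads count loops and were not divided by length. Summed Ntrk2 reads were 10, 25 and 19 in model rats and 14, 15 and 9 in control rats. Summed Ntrk3 reads were 14, 10 and 14 in model rats and 11, 5 and 7 in control rats. Ntrk2 was the higher in 5 of 6 libraries, and model 1 was the exception. The mean log2 ratio of Ntrk2 over Ntrk3, with 0.5 added to each sum, was 0.57 ± 0.72 (SD, n = 6), a 1.48-fold ratio, and the exact two-sided paired permutation test gave p = 0.156 (adjusted p = 0.312 over 2 tests). That difference was within the spread between libraries; the smallest p that 6 libraries allow is 0.0312. The ratio averaged 0.41 ± 0.87 in model rats and 0.72 ± 0.67 in control rats (SD, n = 3 each). The number of distinct junctions per library was 2, 5 and 3 for Ntrk2 and 5, 3 and 5 for Ntrk3 in model rats, and 2, 3 and 4 for Ntrk2 and 2, 3 and 2 for Ntrk3 in control rats. Its mean difference, Ntrk2 minus Ntrk3, was -0.17 ± 2.04 (SD, n = 6; exact two-sided paired permutation p = 1, adjusted p = 1).

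For the contrast on which the hosts were picked, levels are given as reads per 1000 junction reads after TMM scaling (an edgeR scaling that centres most features between libraries). Summed Ntrk2 loops stood at 1.70, 5.53 and 3.34 in model rats and at 1.99, 2.27 and 1.58 in control rats. Model 2 and model 3 lay above every control rat, while model 1 lay below 2 of them, so the groups overlapped. The means were 3.53 ± 1.92 and 1.95 ± 0.348 (SD, n = 3 each, model first), a log2 fold of 0.82 ± 0.47 (SE) in edgeR. Without model 2 the log2 fold was 0.33, and without model 1 it was 1.12.

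Summed Ntrk3 loops stood at 2.39, 2.21 and 2.46 in model rats and at 1.57, 0.757 and 1.23 in control rats. Every model rat was above every control rat on this scale, and the model values lay close together. The means were 2.35 ± 0.128 and 1.18 ± 0.406 (SD, n = 3 each, model first), a log2 fold of 0.98 ± 0.51 (SE), between 0.76 without control 2 and 1.22 without control 1. In unscaled reads the groups overlapped (10 reads in model 2 against 11 in control 1), and they also touched after scaling by the authors' own library divisors (10.52 in model 2 against 10.54 in control 1).

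**Figure D4:**
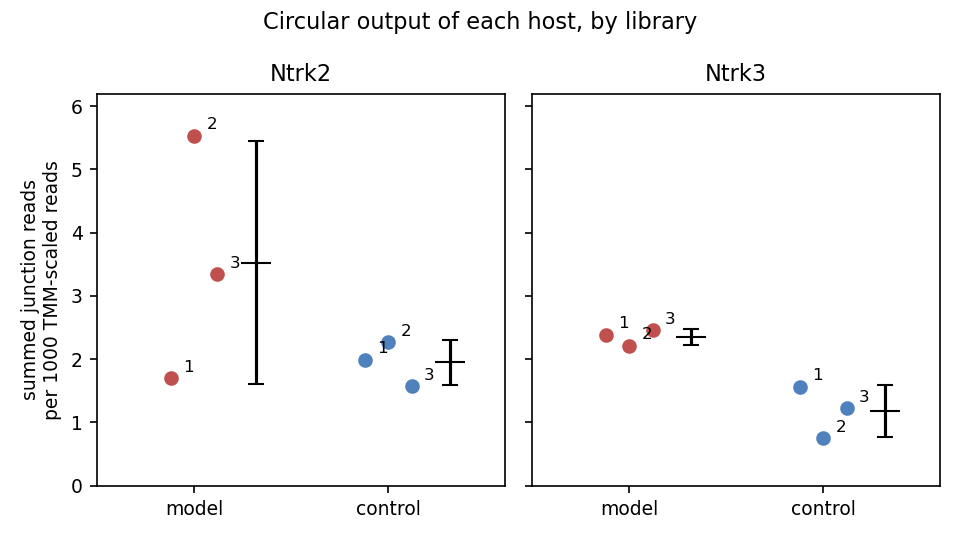
Summed junction reads of Ntrk2 (left) and Ntrk3 (right) per 1000 TMM-scaled reads in model and control rats; points are libraries with their replicate number, and bars show mean ± SD (n = 3). Ntrk2 spreads from 1.70 to 5.53 in model rats and overlaps the control rats, while the Ntrk3 model values (2.21 to 2.46) sit above the control values (0.757 to 1.57).

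Neither host was among the 2 of 107 tested hosts (1.87%) that passed an adjusted p of 0.05 in edgeR. The share of the 107 with every model rat above every control rat was 4.67% (5 hosts, Ntrk3 among them). As these hosts were picked on this contrast, nothing is read from these counts. Ntrk3 also reached the low-count filter of edgeR (minimum count 10, scaled to depth) in model rats only. Its place among the 107 is thus tied to its higher model values. The median log2 fold over all 107 was 0.04. Among these, 3 hosts had a higher fold than Ntrk2 and 1 a higher fold than Ntrk3. That rank depended on the filter. Of 718 hosts with at least 10 reads, 135 had a higher fold than Ntrk2 and 103 a higher fold than Ntrk3.

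None of the 17 junctions passed edgeR's default low-count filter on its own, so folds of single loops come from a fit of the 1029 circRNAs with at least 6 reads. Of these, 0.194% (2 circRNAs) passed an adjusted p of 0.05 and 4.08% had every model rat above every control rat. Among the 5 members with at least 6 reads, 0 passed and 1, circRNA1989, had every model rat above every control rat. The same caution about the choice of hosts holds for these counts.

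Among the Ntrk2 loops, circRNA420 had 7, 16 and 13 reads in model rats and 9, 8 and 0 in control rats. Control 3 was the only library without it, and model 1 lay below the other two control rats. Its level was 2.14 ± 0.876 reads per 1000 in model rats and 0.923 ± 0.803 in control rats (SD, n = 3 each), a log2 fold of 1.18 ± 0.68 (SE), or 0.66 without control 3. The 6-exon circRNA419 differed less, at 0.831 ± 0.296 in model rats and 0.711 ± 0.330 in control rats (SD, n = 3 each). Its log2 fold of 0.21 ± 0.93 (SE) turned to -0.085 without control 3. The authors' deposited table gives a log2 fold of 1.14 for circRNA420 and of 0.15 for circRNA419.

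The Ntrk2 reads of control 3 fell at another acceptor. In that library 0 reads used the acceptor of circRNA420 (5831572) and 6 used that at 5836523. The latter, the next acceptor upstream among those of listed loops, belongs to circRNA3996 (4 reads) and circRNA3995 (2 reads). In the other five libraries together 53 reads used the acceptor at 5831572 and 1 read, in model 2, used that at 5836523. Control 3 had 5926 junction reads, within the 4750 to 6793 of the other libraries. This pattern was noticed in the counts, rests on 9 Ntrk2 reads of 1 rat and was not tested.

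Among the Ntrk3 loops, circRNA1989 at the downstream end had 8, 7 and 5 reads in model rats and 4, 3 and 3 in control rats. Its level was 1.18 ± 0.260 reads per 1000 in model rats and 0.551 ± 0.0870 in control rats (SD, n = 3 each), a log2 fold of 1.07 ± 0.89 (SE), between 1.01 and 1.26 with any 1 library left out. At the upstream end circRNA1990 had 1, 2 and 4 reads in model rats and 7, 1 and 4 in control rats, so its groups overlapped. Its level was 0.414 ± 0.271 in model rats and 0.662 ± 0.488 in control rats (SD, n = 3 each), with a log2 fold of -0.65 ± 1.08 (SE) that turned to 0.021 without control 1. The long circRNA3592, from the donor of circRNA1989 to the acceptor of circRNA1990, had 3, 0 and 3 reads in model rats and 0, 1 and 0 in control rats. The authors' deposited table gives a log2 fold of 1.03 for circRNA1989 and of -0.78 for circRNA1990.

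By splice site, the Ntrk3 donor at 132185708, shared by circRNA1989, circRNA3592 and circRNA5779, had 12, 7 and 8 reads in model rats and 4, 4 and 3 in control rats. The donor at 132373967, shared by circRNA1990 and circRNA7324, had 1, 2 and 5 reads in model rats and 7, 1 and 4 in control rats. The higher Ntrk3 sum of model rats therefore lay at the downstream donor. Loops seen in 1 group only had few reads. Of the 17 entries, 6 had reads in model rats alone and 2 in control rats alone, none with more than 4 reads. The share of such loops over all circRNAs was not computed, so nothing is read from these counts.

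Other genes of the neurotrophin pathway gave little circular RNA. No read was counted for the ligand genes Bdnf, Ntf3 and Ntf4, nor for Ngfr, which encodes the low-affinity receptor p75. Such counts concern loops and not the mRNA of these genes. Of 13 receptor and co-receptor genes 4 were detected, the other two being sorting receptor genes: Sorcs1 had 1, 7 and 3 reads in model rats and 6, 0 and 3 in control rats, and Sorcs3 had 1 read in model rats and 3 in control rats. Among 34 adaptor and effector genes 13 were detected, with 19 reads in model rats and 22 in control rats and none tested. The most read were Sos2, a Ras exchange factor gene (7 reads in model rats and 2 in control rats), Cblb, a ubiquitin ligase gene (2 and 5, model first), and Ptpn11, which encodes the phosphatase SHP2 (1 and 6, model first).

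Of 35 genes of the MAP kinase and phosphoinositide 3-kinase branches 14 were detected, with 64 reads in model rats and 93 in control rats. Pik3r1, a regulatory subunit gene of phosphoinositide 3-kinase, had 11 reads in each group, and Prkcb, a protein kinase C gene, had 9 in model rats and 12 in control rats. Of the 3 members of the pathway lists that were tested, 0 passed an adjusted p of 0.05 in edgeR in either direction, beside the 1.87% of all hosts.

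Among 58 receptor tyrosine kinase genes, 23 gave at least 1 read, and Ntrk2 and Ntrk3 were the most read of them. Next were the ephrin receptor genes Epha5, with 18, 4 and 2 reads in model rats and 15, 8 and 6 in control rats, and Epha6, with 8, 7 and 4 in model rats and 3, 2 and 3 in control rats. Ntrk3 (61 reads) and Epha5 (53 reads) were close in total and overlapped over libraries. Ntrk2 and Ntrk3 were the only members of this list that passed the low-count filter, Ntrk3 through the model libraries alone. The other 21 detected genes together had 39, 22 and 26 reads in model rats and 42, 19 and 30 in control rats, so their groups overlapped. Detected junctions numbered 8 for Ntrk2 and 7 for Ntrk3, against 12 for Erbb4 (15 reads) and 10 for Epha5.

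**Figure D5:**
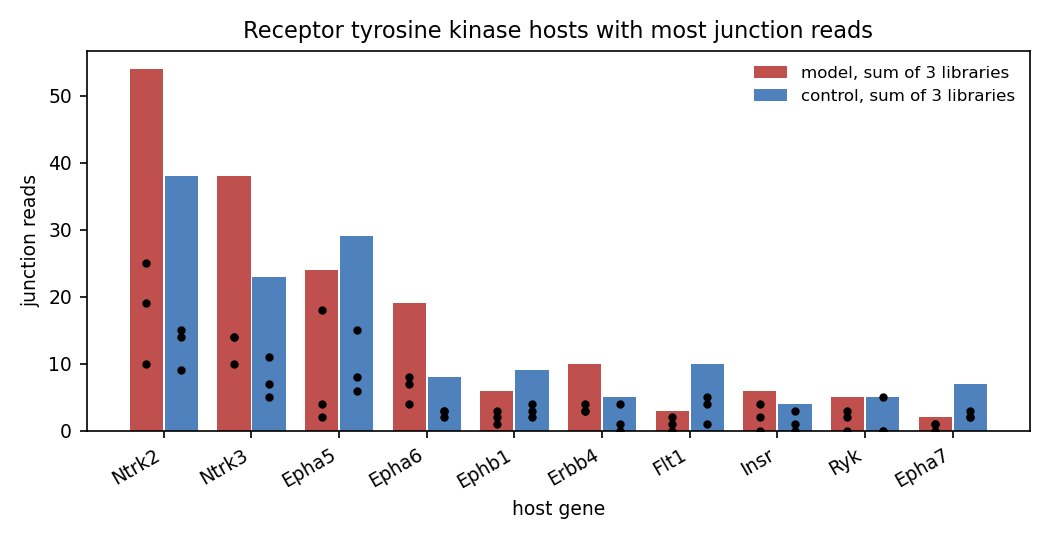
Junction reads of the 10 receptor tyrosine kinase hosts with most reads; bars are sums over 3 model and 3 control libraries, and black points are the single libraries. Ntrk2 (54 in model and 38 in control rats) and Ntrk3 (38 and 23) stand first, followed by Epha5 (24 and 29) and Epha6 (19 and 8).

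Reads of loops from cell type marker genes were also summed, first for oligodendrocytes, the cells that make the myelin of white matter. Of 16 oligodendrocyte genes 8 were detected, with 0, 6 and 0 reads in model rats and 4, 15 and 9 in control rats (0% to 0.126% and 0.0589% to 0.239% of junction reads, model first). Mog, Mag, Cnp, Cldn11, Ermn, Aspa, Gjc3 and Fa2h were at 0. Astrocyte genes (5 of 13 detected) had 56 reads in model rats and 90 in control rats, and stood at 0.258% to 0.421% in model rats and 0.422% to 0.515% in control rats, with Aqp4, Slc1a3, Aldh1l1 and Gja1 at 0. Most of those reads came from Prex2, a Rac exchange factor gene (30 reads in model rats and 53 in control rats, log2 fold -0.55 ± 0.44, SE, edgeR adjusted p = 0.798), and Slc1a2, the glutamate transporter gene (24 and 32, model first). Oligodendrocyte precursor genes (6 of 13) stood at 0.123% to 0.172% and 0.0636% to 0.186%, neuron genes (4 of 16) at 0.0527% to 0.172% and 0.0318% to 0.118%, and endothelial genes (5 of 12) at 0% to 0.0842% and 0.0159% to 0.118%, each with model rats first. These sums leaned on single genes. Dscam held 19 of 23 precursor reads in model rats and 14 of 21 in control rats. Syt1 held 10 of 17 neuron reads in model rats and 6 of 12 in control rats. Flt1 held 3 of 6 endothelial reads in model rats and 10 of 14 in control rats. Microglia genes (2 of 13) had 5 reads in model rats and 0 in control rats. The part of these differences in the Ntrk2 and Ntrk3 values was not tested.

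The hosts whose log2 level over the 6 libraries was most like that of Ntrk2 were Sergef (Pearson r = 0.98), Mtrf1 (r = 0.94) and Cacna2d3 (r = 0.84), a calcium channel subunit gene. For Ntrk3 they were Kdm6a (r = 0.90), a histone demethylase gene, Zmym2 (r = 0.87) and Rabgap1 (r = 0.84), and no host appeared in both lists. Between Ntrk2 and Ntrk3 themselves r was 0.40. These are descriptions over 6 libraries among 107 hosts, the highest values of many, and all hosts share library depth and scaling. The group difference was left in these correlations, so they carry the contrast on which Ntrk2 and Ntrk3 were picked. Kdm6a and Zmym2, like Ntrk3, had every model rat above every control rat after TMM scaling. The likeness is therefore not independent of that choice. In raw reads Sergef had 30, 52 and 50 in model rats and 44, 42 and 33 in control rats, highest in model 2 and low in model 1 and control 3, as Ntrk2 was. Kdm6a had 23, 22 and 27 in model rats and 26, 12 and 21 in control rats, lowest in control 2, as Ntrk3 was.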

How the data were processed

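White matter RNA of 6 rats was treated with RNase R and sequenced as 1 library each, per the labels' protocols. The submitters' processing notes name the build mRatBN7.2, and the sources used here name no aligner or circRNA caller. The authors deposited raw counts of junction reads and a normalised signal (SRPBM), per the file headers. That signal equals the count over 1 divisor per library, and the divisors were used only as an alternative scaling. The deposited log2 fold changes and the number of exons (another value per circRNA) are the authors' own. The deposited p-values and q-values, whose test the sources used here do not name, were not used.

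Counts were tested with edgeR 4.0.16 (R 4.3.3), quasi-likelihood, with TMM scaling, filterByExpr (minimum count 10, minimum total 15) and Benjamini-Hochberg adjustment over all features, per circRNA (60 tested) and per host sum (107 tested). An SE is the absolute log2 fold over the square root of F. For likeness, log2 CPM was computed from those counts (prior count 2). Hosts were compared by exact paired permutation tests (scipy 1.17.1). The edgeR step was tested on simulated data. Alternatives used DESeq2 1.42.0, limma 3.58.1, other filters and scaling, a replicate block and left-out libraries. Members and lists were chosen with earlier results of these data known. Every junction of at least 6 reads is given by library, and from each list the members with most reads are named, others being named after their values were seen; some list members are not reported here. The labels do not say more than that libraries are separate biosamples, so p-values measure the spread between these samples. Replicates differed beyond counting noise in every pair (largest chi-square p = 0.000648).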

Additional observations from a re-analysis of the deposited data

How the results depend on the processing

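The log2 folds of the Ntrk2 sum and of the Ntrk3 sum kept their sign and did not pass in all 16 alternatives each. As the hosts were picked on high folds in these same data, the kept sign is no evidence of a difference. With any 1 library left out the folds ranged from 0.33 to 1.12 for Ntrk2 and from 0.76 to 1.22 for Ntrk3. Under the other settings they ranged from 0.53 to 0.82 and from 0.73 to 1.00. With the authors' divisors as library sizes (added after the data were seen) the folds were 0.53 and 0.73, while the median over all 107 hosts moved to -0.23. The log2 ratio of Ntrk2 to Ntrk3 reads kept its sign in all 10 alternatives (0.30 to 0.78) and did not pass in the 4 that use all 6 libraries (exact permutation p from 0.125 to 0.75). With 5 libraries the exact permutation test cannot go below p = 0.0625, the value reached without model 1, so the left-out fits show only the sign. The difference in distinct junctions ranged from -0.6 to 0.4 with 1 library left out and turned sign without model 1 (0.4) or model 3 (0.2); the cause was not tested. Single loops whose fold turned sign were circRNA1990 (0.021 without control 1, -1.24 to 0.021 over left-out libraries) and circRNA419 (-0.085 without control 3, -0.085 to 0.62). Over all features, the 2 circRNAs past the threshold became 0 with DESeq2 size factors in edgeR, with DESeq2, without a filter and at 10 reads, and 0 to 1 with a library left out. The 2 hosts became 0 with DESeq2 and 0 to 4 with a library left out (4 without model 1). In none of these fits did Ntrk2, Ntrk3 or a junction of theirs pass. At an unadjusted p under 0.05 there were 24 circRNAs and 22 hosts with DESeq2, 3 circRNAs with DESeq2 size factors in edgeR, 53 without a filter and 32 at 10 reads. With the replicate number as a block, the folds were 0.74 for Ntrk2 and 1.00 for Ntrk3, and 3 hosts passed. Same-numbered libraries did not deviate together (r from -0.16 to -0.05 over hosts), so the numbers are not read as pairs. Depth limits every single loop: 10 of the 15 detected entries had under 6 reads.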
